A study of Homo sapiens with 32 samples.

Results

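CLU and SCARA5 are 2 of the 57773 genes counted in RNA of HEK293 cells transfected transiently with the angiotensin II receptor AT1R. The cells were kept for 6 h or 24 h with EGF, angiotensin II (AngII), both or neither (Control). The 2 genes were selected on their edgeR calls. Both lie among the 7 genes called higher with EGF after 24 h. Their difference between EGF and Control at that time is therefore given here as a description, without a test. The pair had been named, with results of these data known, as genes that answer to EGF late. For SCARA5 no rise was detected after 6 h, which matches the name but is no separate test of it. CLU was already higher with EGF after 6 h in every library.

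CLU encodes clusterin, a secreted glycoprotein that acts as a chaperone outside the cell, binds unfolded proteins and lipids and is also classed as an apolipoprotein (ApoJ). It is taken up through endocytic receptors and is known to increase in injured kidney tubules. SCARA5 encodes a class A scavenger receptor of the plasma membrane that binds L-ferritin and brings iron into cells, a route described in the developing kidney. EGF binds the receptor tyrosine kinase EGFR and drives the ERK cascade, whereas AngII acts on AT1R, a G protein-coupled receptor encoded by AGTR1.

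Both genes lie on the minus strand of chromosome 8 (build GRCh37). CLU (ENSG00000120885) spans 27454434 to 27472217 with 17 annotated transcripts, and SCARA5 (ENSG00000168079) spans 27727400 to 27850190 with 4 annotated transcripts. A gap of 255.2 kb lies between them. It holds 11 other genes of the count tables, 4 of them protein coding (SCARA3, CCDC25, ESCO2 and PBK). No annotated gene overlaps CLU. An antisense RNA, RP11.597M17.1, shares 163 exonic bases with SCARA5 on the opposite strand. It reached at most 5 counts in a library after 6 h and 20 after 24 h, while SCARA5 had at least 101. Whether strand was used in counting is not stated, so reads from the shared bases cannot be assigned to either gene.

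HEK293 is a line derived from human embryonic kidney. All cells had been transfected transiently with an expression plasmid for human AT1R, so not every cell need carry it, and were moved to medium without serum before stimulation. They then received no stimulus (Control), 1 nM angiotensin II (AngII), 10 µg/l EGF (EGF) or both together (EGF+AngII). Each condition had 4 libraries at each time point, except EGF+AngII after 24 h, where 3 of the 4 were analysed. The labels do not say whether libraries of a condition came from separate cultures, so p-values measure the spread between these libraries, which may be technical.

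The 16 libraries after 6 h held 3881841 to 8540815 counts, 81.4% to 84.7% of them in protein-coding genes; the 15 libraries after 24 h held 6646227 to 33070903 counts, but only 20.8% to 63.4% in protein-coding genes. Levels are given as FPM, the counts scaled to library size on the CPM scale with TMM factors within a time point. A gene was called when the Benjamini-Hochberg FDR from the edgeR quasi-likelihood test was under 0.05, the fold change above 1.5 and the FPM above 5 in the higher group. The typical biological coefficient of variation, as edgeR estimates it from the dispersion, was 10.6% after 6 h and 29.1% after 24 h. Smaller changes could therefore be called at the earlier time. For the 2 genes themselves this estimate was 7.84% (CLU) and 11.03% (SCARA5) after 6 h, and 14.1% and 13.1% after 24 h. The coefficient of variation of FPM within a condition ran from 1.96% (CLU, EGF+AngII after 6 h) to 19.7% (SCARA5, Control after 6 h). AGTR1 had at least 3585 counts in every library. After 6 h it was higher in the libraries with AngII, at 1309 to 1505 FPM (AngII) and 1405 to 1558 FPM (EGF+AngII). Control had 944 to 1183 FPM and EGF 1016 to 1228 FPM. After 24 h the conditions overlapped. The part of this difference in the results was not tested. Of 10 genes fixed as HEK293 markers, NEFM, NEFL and VIM were the highest, and PAX2 was close to 0 at a mean of 0.436 FPM after 6 h and 0.360 after 24 h. In the lists for other cell types, DCN and LUM (fibroblasts), ALB and TTR (hepatocytes) and CD163 and PTPRC (macrophages) had at most 7 counts in any library. COL1A1 of the fibroblast list had a mean of 15.1 FPM after 6 h and 12.5 after 24 h, PDGFRA reached 76 counts, and CSF1R and CD14 of the macrophage list reached 33 and 23. The smooth muscle markers were all present, with mean FPM after 6 h and 24 h of 15.2 and 7.40 (MYH11), 9.19 and 10.4 (ACTA2) and 4.74 and 1.29 (TAGLN). Of the proximal tubule list, LRP2 had 14.4 and 11.3 FPM, and CUBN and AQP1 reached 83 and 40 counts.

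After 6 h, EGF raised CLU. CLU stood at 49.6, 44.2, 44.9 and 44.5 FPM in the 4 Control libraries and at 64.9, 73.5, 69.5 and 64.7 FPM in the 4 EGF libraries. All EGF libraries lay above all Control libraries. The means were 45.8 ± 2.56 and 68.1 ± 4.19 FPM (SD, n = 4 each; exact two-sided permutation p = 0.029, the smallest that 4 against 4 allow). The log2 fold change in edgeR was 0.57 (SE 0.093, 95% interval 0.38 to 0.77) at an FDR of 0.00039. An FDR under 0.05 was reached by 5.97% of the 18618 genes tested. The fold change lay just under 1.5, so CLU was not among the 1.73% of genes called in this comparison. It was called when Control replicate 1, EGF replicate 1 or EGF replicate 4 was left out (log2 fold change 0.62, 0.60 and 0.61).

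With AngII present, the rise of CLU after 6 h passed every filter. The EGF+AngII libraries had 73.1, 76.0, 73.5 and 72.8 FPM, the narrowest range of all conditions, and the AngII libraries had 38.9, 42.5, 51.4 and 34.7 FPM, the widest after 6 h. EGF+AngII exceeded Control by 0.69 on the log2 scale (SE 0.093, edgeR FDR 3.8e-05; 1.95% of genes called) and AngII by 0.81 (SE 0.094, edgeR FDR 5.1e-06; 1.87% of genes called). In both comparisons the groups did not overlap (exact permutation p = 0.029). Both calls stayed when any of the 16 libraries was left out.

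SCARA5 did not follow CLU at this time. It stood at 24.4, 26.1, 25.1 and 36.1 FPM in the Control libraries and at 17.2, 22.7, 26.7 and 26.4 FPM in the EGF libraries. The groups overlapped, and the EGF mean was the lower (23.2 ± 4.42 against 27.9 ± 5.52 FPM, SD, n = 4 each; exact permutation p = 0.31). The log2 fold change was −0.27 (SE 0.13, 95% interval −0.54 to 0.01, edgeR FDR 0.26), so that a rise beyond 0.01 lay outside the interval of this fit. One Control library, replicate 4 at 36.1 FPM, stood apart from the others. Without it the log2 fold change was −0.11 (edgeR FDR 0.71), so the limit of 0.01 holds only with that library in the fit. The AngII libraries had 26.5, 24.8, 25.4 and 28.9 FPM and the EGF+AngII libraries 25.9, 24.2, 24.3 and 25.3 FPM, and only 2 of the EGF+AngII libraries lay below the lowest Control library, by a small margin. EGF+AngII differed from Control by −0.17 (edgeR FDR 0.53; −0.02 without Control replicate 4) and from AngII by −0.08 (95% interval −0.36 to 0.20, edgeR FDR 0.81).

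**Figure D1:**
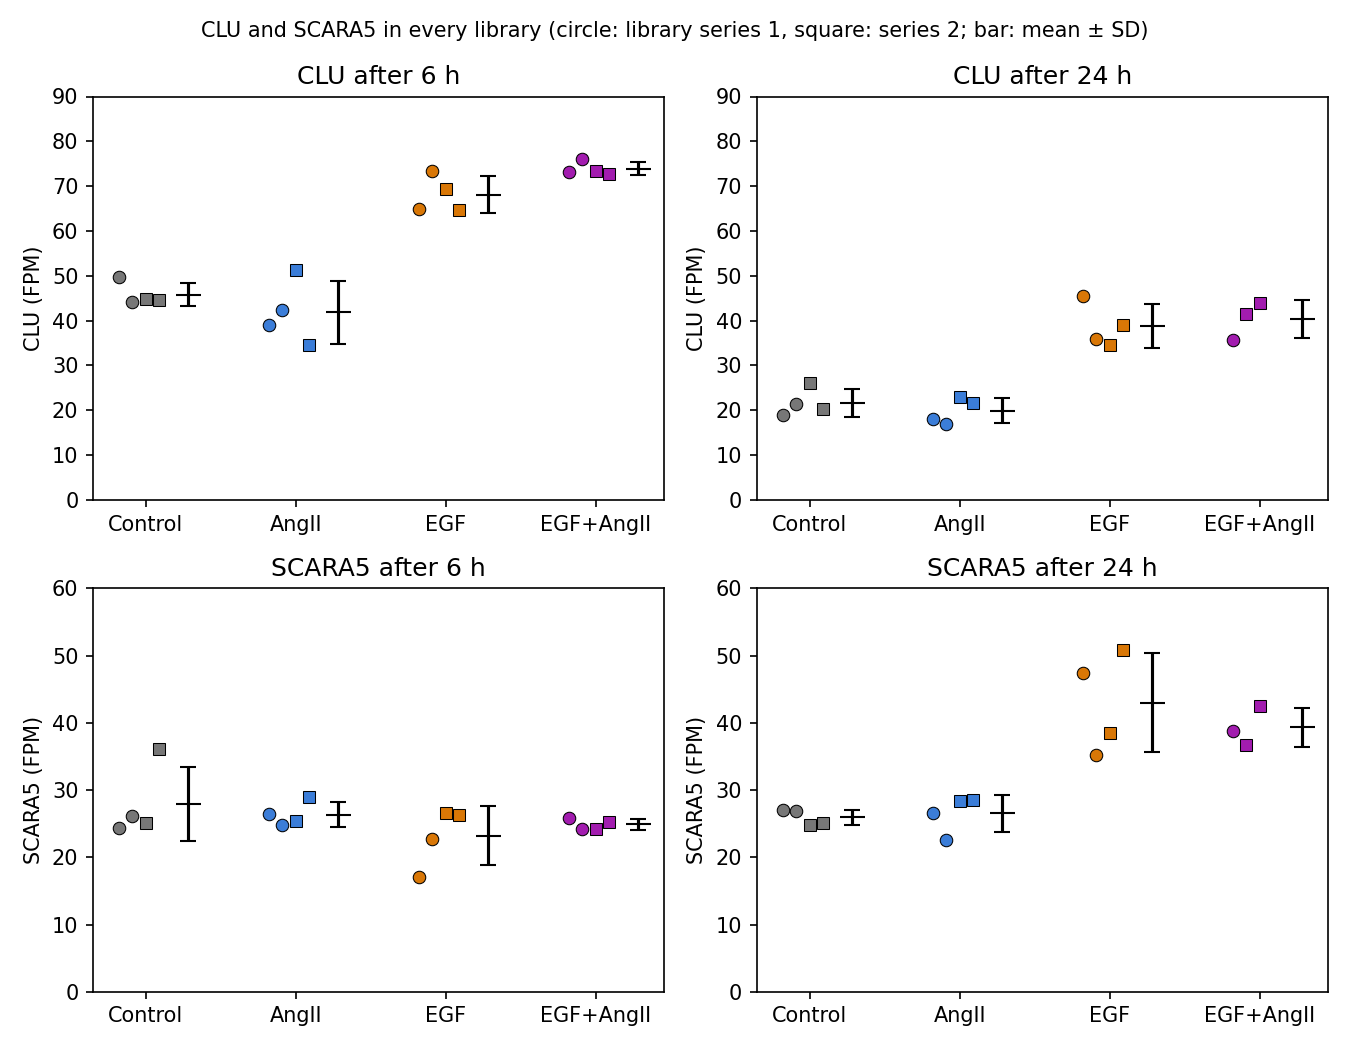
Level of CLU (upper row) and SCARA5 (lower row) in FPM in every library after 6 h (left) and 24 h (right). Each point is 1 library, circles and squares are the lower and higher library numbers of the labels, and the bar beside them is the mean ± SD; the EGF and EGF+AngII points lie above the Control and AngII points in every panel except that of SCARA5 after 6 h.

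After 24 h both genes were higher in the libraries with EGF. CLU had 19.0, 21.4, 26.1 and 20.3 FPM in Control and 45.5, 36.0, 34.6 and 39.0 FPM with EGF. SCARA5 had 27.0, 26.9, 24.8 and 25.1 FPM in Control and 47.5, 35.3, 38.5 and 50.8 FPM with EGF. For both genes the lowest EGF library lay above the highest Control library. The log2 fold changes were 0.83 (SE 0.14) for CLU and 0.73 (SE 0.13) for SCARA5. Only 0.0316% of the 22174 genes tested were called here, and since this comparison chose the pair, nothing further is read from their calls. Those calls were close to the limit, with an edgeR FDR of 0.037 for CLU and 0.045 for SCARA5. Of the 15 fits that each left out 1 library, 4 kept the call for CLU (without Control replicate 3, EGF replicate 3, AngII replicate 2 or AngII replicate 3) and 4 that for SCARA5 (without EGF replicate 2, EGF replicate 3, AngII replicate 2 or AngII replicate 3); each of the other libraries, left out alone, ended it, with an FDR of up to 0.17 for CLU and 0.18 for SCARA5. The log2 fold changes themselves stayed between 0.75 and 0.94 for CLU and between 0.64 and 0.81 for SCARA5.

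EGF+AngII against AngII after 24 h uses neither the EGF nor the Control libraries. It is not fully separate from the choice of the pair, since all 15 libraries set the spread in the fit behind that choice, and the call of CLU with EGF+AngII against Control was already known. CLU had 35.7, 41.5 and 43.98 FPM with EGF+AngII and 18.0, 17.0, 22.9 and 21.5 FPM with AngII. The means were 40.4 ± 4.25 (SD, n = 3) and 19.9 ± 2.81 FPM (SD, n = 4; exact permutation p = 0.057, the smallest that 3 against 4 allow). The log2 fold change was 1.03 (SE 0.15, edgeR FDR 0.0039), and CLU was 1 of the 9 genes called (0.0406%). This call stayed in all 15 fits that left out a library.

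SCARA5 went the same way by a smaller amount. It had 38.9, 36.7 and 42.5 FPM with EGF+AngII and 26.6, 22.6, 28.4 and 28.6 FPM with AngII. Again the groups did not overlap (39.4 ± 2.92, SD, n = 3, against 26.6 ± 2.76 FPM, SD, n = 4; exact permutation p = 0.057). The log2 fold change of 0.57 (SE 0.14, 95% interval 0.28 to 0.86) did not pass the test across all genes (edgeR FDR 0.25). With limma voom and library quality weights it was 0.59 and passed (FDR 0.038); with DESeq2 it was 0.56 at an adjusted p of 0.047, below the 1.5-fold limit. Against Control, EGF+AngII gave 0.89 (SE 0.15) for CLU and 0.60 (SE 0.14) for SCARA5, with the Control libraries that also served to choose the pair. These values are therefore a description without a test, and nothing is read from the calls that follow. CLU was called there by edgeR (0.0271% of genes called) and SCARA5 was not (FDR 0.19), while DESeq2 called SCARA5 too (0.59, adjusted p 0.020). That call of CLU ended, at an FDR of up to 0.26, without Control replicate 1, Control replicate 4, EGF+AngII replicate 3 or EGF+AngII replicate 4.

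No effect of AngII on either gene was detectable at either time. Against Control, AngII alone changed CLU by −0.12 after 6 h (95% interval −0.32 to 0.08) and by −0.13 after 24 h (−0.42 to 0.16). For SCARA5 the values were −0.10 (−0.38 to 0.18) and 0.03 (−0.24 to 0.30). The edgeR FDR was at least 0.987 in all of them, and exact permutation p-values ran from 0.31 to 0.83. None of the genes that passed the low-count filter was called with AngII alone (0%) by edgeR, DESeq2 or voom. An unadjusted edgeR p under 0.05 was reached by 845 genes after 6 h (4.54% of 18618) and 551 after 24 h (2.48% of 22174). Both shares lie below the one that this limit admits when no gene differs. With no low-count filter, edgeR called 17 genes after 6 h and 20 after 24 h, neither CLU nor SCARA5 among them. The EGF+AngII libraries overlapped the EGF libraries for both genes at both times. After 6 h EGF+AngII exceeded EGF by 0.12 for CLU (−0.07 to 0.30) and by 0.09 for SCARA5 (−0.18 to 0.37). After 24 h the differences were 0.06 (−0.25 to 0.37) for CLU and −0.12 (−0.41 to 0.16) for SCARA5. The interaction, which is the part of the joint effect beyond the sum of both single effects on the log2 scale, amounted for CLU to 0.23 (−0.04 to 0.51) in the early and 0.19 (−0.23 to 0.62) in the late libraries, and for SCARA5 to 0.19 (−0.20 to 0.58) and −0.16 (−0.55 to 0.24).

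**Figure D2:**
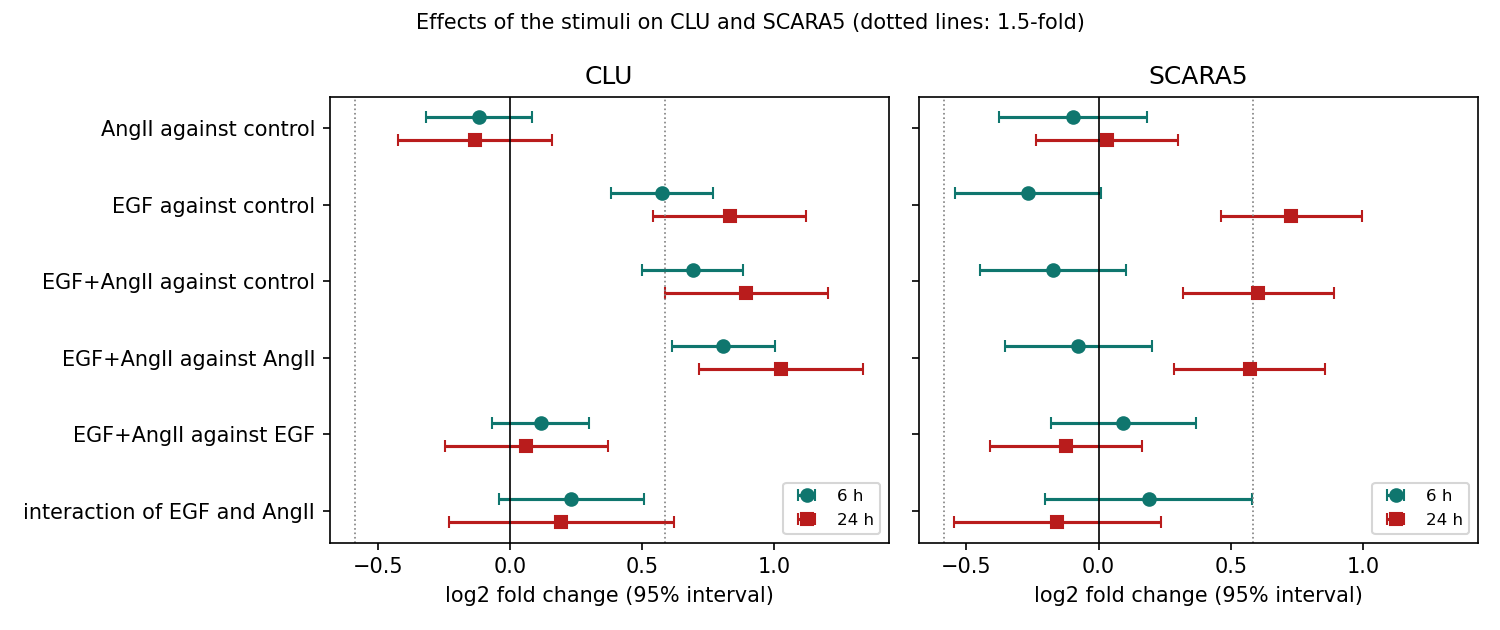
Log2 fold change with its 95% interval from edgeR for CLU (left) and SCARA5 (right) in 6 comparisons, with circles for 6 h and squares for 24 h. The comparisons with EGF lie right of 0 at both times for CLU and only after 24 h for SCARA5, and every comparison of AngII crosses 0.

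From these values the order of the conditions was the same for CLU at both times, namely AngII, Control, EGF and EGF+AngII from low to high. Its neighbours AngII and Control overlapped, as did EGF and EGF+AngII, whereas Control and EGF were apart. For SCARA5 after 6 h the order was EGF, EGF+AngII, AngII and Control, and all neighbours overlapped. After 24 h it was Control, AngII, EGF+AngII and EGF, with a break between AngII and EGF+AngII alone.

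To set the time points side by side, all 31 libraries were scaled and fitted together. The effect of EGF on CLU was 0.25 larger after 24 h than after 6 h on the log2 scale, with a 95% interval of −0.09 to 0.59 that spans 0. For SCARA5 the effect of EGF was 0.99 larger after 24 h (SE 0.19, 95% interval 0.60 to 1.38), and that of EGF+AngII 0.76 larger (SE 0.20), where edgeR did not call it (FDR 0.16) and DESeq2 did (adjusted p 0.037). Of all genes, 0.16% were called for an EGF effect that differed between the times. Because the pair was picked for its values after 24 h, these differences are a description. The value of SCARA5 was 0.83 without the high Control library after 6 h (replicate 4) and 0.86 without the low EGF library (replicate 1), and in both cases it was no longer called (edgeR FDR 0.074 and 0.056). For AngII the effects differed by 0.00 (−0.35 to 0.35) for CLU and by 0.14 (−0.25 to 0.53) for SCARA5.

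The unstimulated level of the 2 genes also moved apart. On the common scale CLU was 33.2 ± 2.00 FPM in Control after 6 h and 30.5 ± 4.28 FPM after 24 h (SD, n = 4 each), a log2 difference of −0.12 (95% interval −0.36 to 0.12, edgeR FDR 0.46). SCARA5 was 20.3 ± 4.05 FPM in Control after 6 h and 36.4 ± 1.77 FPM after 24 h, so that the highest library after 6 h (26.3) lay below the lowest after 24 h (34.7). The log2 difference was 0.84 (SE 0.14, edgeR FDR 5.2e-06). However, 19.2% of all genes were called between the Control libraries of both times, and the share of protein-coding counts differed as well, so time in serum-free medium and library preparation cannot be told apart. In CPM of protein-coding counts alone, SCARA5 in Control went from a mean of 33.9 to one of 61.8 and CLU from 55.6 to 51.6.

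A ratio within a library does not depend on scaling. It was added after the values had been seen and carries no test. CLU had 1.66 counts for each count of SCARA5 in Control after 6 h (geometric mean, range 1.23 to 2.04) and 1.57 with AngII (1.20 to 2.03). With EGF the ratio was 2.97 (2.45 to 3.78) and with EGF+AngII 2.96 (2.82 to 3.14), so no library with EGF overlapped one without it. After 24 h the ratio was 0.831 in Control, 0.745 with AngII, 0.906 with EGF and 1.02 with EGF+AngII. There the Control libraries (0.701 to 1.05) overlapped those with EGF (0.767 to 1.02). The EGF+AngII libraries (0.918 to 1.13) lay above all AngII libraries (0.674 to 0.807), a 1.37-fold difference of the ratio. Per kilobase of all annotated exons, the level of CLU relative to SCARA5 in Control was 1.16 after 6 h and 0.579 after 24 h, but 2.40 and 1.20 when the canonical transcript (2749 bases for CLU, 3971 for SCARA5) was used as the length. Which gene was the more abundant after 24 h therefore depends on the length chosen.

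**Figure D3:**
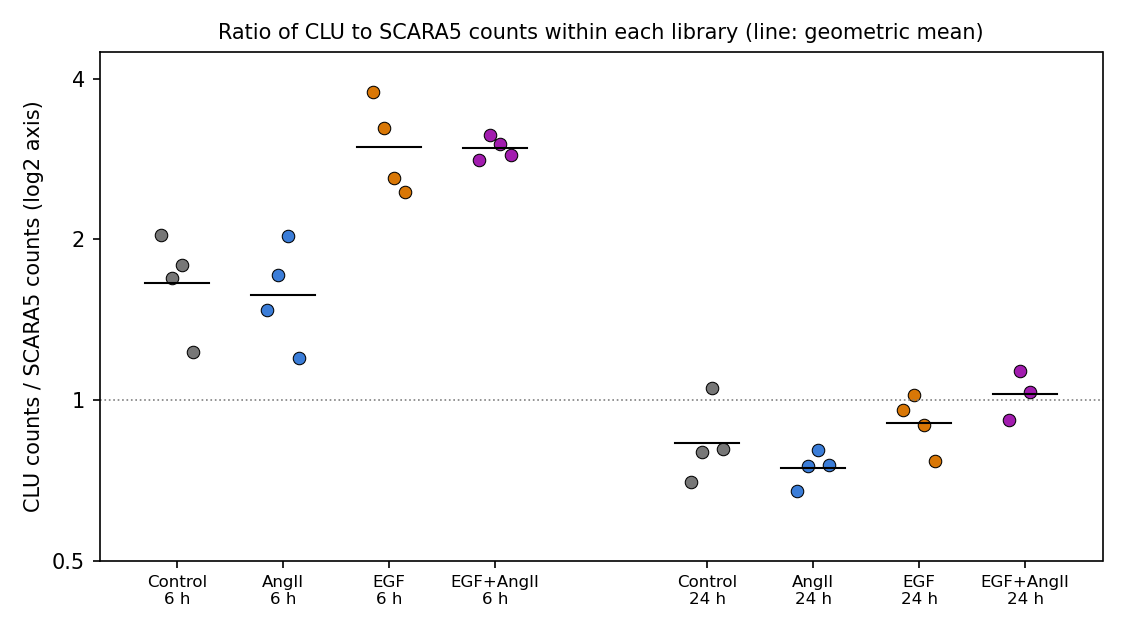
CLU counts divided by SCARA5 counts in each library, on a log2 axis, by condition and time point; each point is 1 library and the line is the geometric mean. After 6 h the libraries with EGF lie above all others, and after 24 h all libraries lie between 0.674 and 1.13, with those of EGF+AngII above those of AngII.

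Within the transcriptome both genes were of middle to high abundance. By mean FPM, CLU exceeded 77.9% of the 18407 protein-coding genes with counts after 6 h and 79.3% of 18533 after 24 h. SCARA5 exceeded 60.7% after 6 h and 81.6% after 24 h. These ranks are not corrected for gene length. Ordered from the most negative to the most positive, the log2 fold change of CLU with EGF after 6 h lay at percentile 96.4 of all genes tested and that of SCARA5 at percentile 17.5.

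After the mean of each condition was removed, the correlation of log2(FPM + 0.5) between CLU and SCARA5 was −0.21 over 16 libraries after 6 h and 0.48 over 15 libraries after 24 h, a description without a test. The labels do not say which libraries were prepared together. Neither gene followed the protein-coding share closely after 24 h (Pearson correlation −0.27 for CLU and −0.28 for SCARA5). After 24 h the libraries fell into a group with and a group without EGF.

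**Figure D4:**
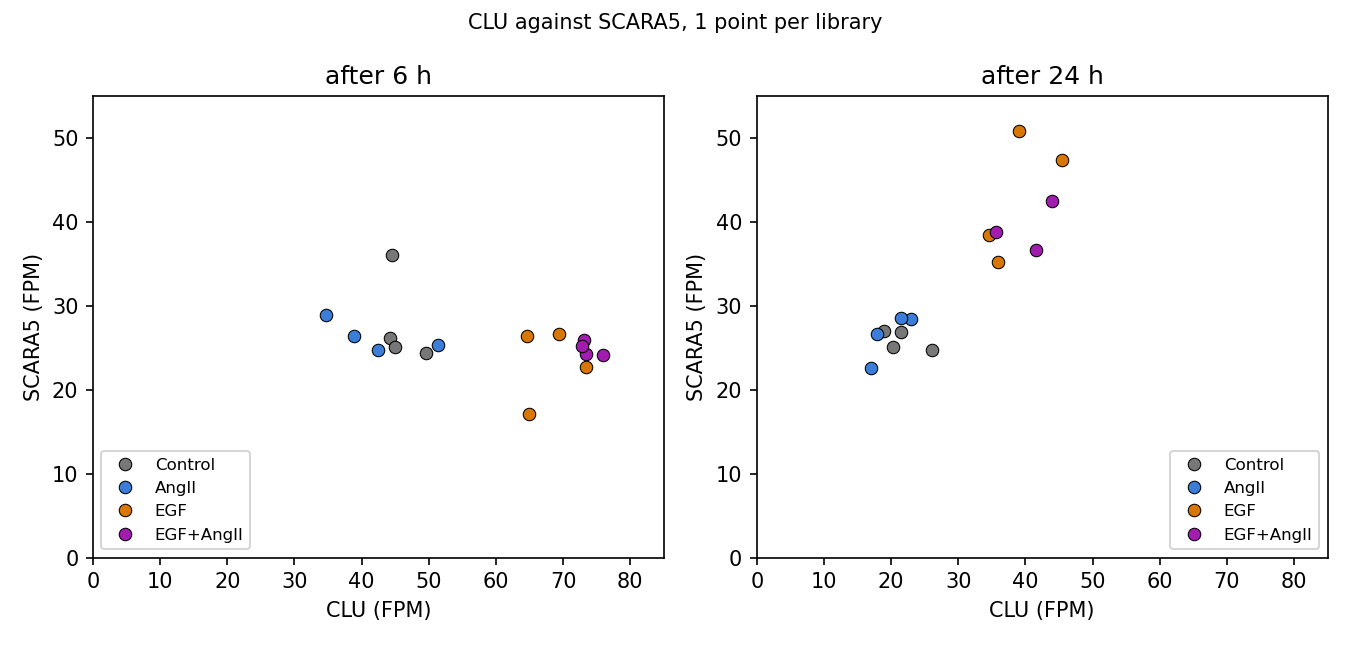
SCARA5 against CLU in FPM, 1 point per library, after 6 h (left) and 24 h (right), coloured by condition. After 6 h the points with EGF are shifted along the CLU axis only; after 24 h they are shifted along both axes.

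The genes whose log2(FPM + 0.5) was most like that of each member over the libraries of a time point were looked up among 12978 genes above 5 FPM after 6 h and 11702 after 24 h. For CLU after 6 h these were NAB2, a corepressor of EGR factors (Pearson correlation 0.97), C11orf96 (0.97), SDK2 (0.97), the lysosomal protease CTSB (0.96) and the semaphorin receptor PLXNA3 (0.96), and the most opposed were KLF8 (−0.95) and KIAA1109 (−0.94). After 24 h CLU was most like TNC, an extracellular matrix protein (0.96), IGF2 (0.95), MYC (0.95), EGR1 (0.94) and YARS (0.94). RPAP2 (−0.95) and the lincRNA AC159540.2 (−0.94) were the most opposed. SCARA5 ranked only 10654 in likeness to CLU after 6 h, but 11 after 24 h. SCARA5 in turn was most like IQGAP3 (0.95), NEFM (0.94), TNC (0.91), CLU (0.91) and EEF1A2 (0.91) after 24 h, with AC159540.2 (−0.94) and FAT1 (−0.87) opposed. After 6 h its closest genes reached lower values, namely ZNF710 (0.85), FAM134A (0.85), HNRNPUL1 (0.79), the pseudogene EIF4BP6 (0.75) and MARCH8 (0.75), with PRKAA2 (−0.76) and ARHGAP26 (−0.76) opposed. By rank these were weaker, with Spearman correlations of 0.58, 0.57, 0.51, 0.40 and 0.62, and of −0.33 and −0.57 for the opposed genes. At this time Control replicate 4 stood apart for SCARA5 (36.1 FPM), and its part in these values was not tested. All these orders rest on the contrast of libraries with and without EGF wherever the member differs between them. Since EGF against Control after 24 h also chose the pair, the likeness of CLU and SCARA5 at that time follows from the choice. It is no separate result.

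Among 36 listed neighbours, 10 were tested after 6 h and 1 was called with EGF (1.73% of all genes), the zinc finger gene ZNF395 (log2 fold change 0.59, SE 0.093, edgeR FDR 0.00028). It was also called with EGF+AngII (0.71 against Control, 0.67 against AngII). After 24 h ZNF395 differed by −0.03 (SE 0.13), and none of 14 neighbours tested was called by edgeR with EGF (0.0316% of all genes). SCARA3, the scavenger receptor gene next to CLU, changed by 0.27 after 6 h (SE 0.16, edgeR FDR 0.37) and −0.18 after 24 h (SE 0.30), and the best expressed neighbours FZD3, a Wnt receptor, and ELP3, a subunit of Elongator, by 0.21 and 0.02 after 6 h. The median over the neighbours tested was 0.01 after 6 h and −0.16 after 24 h, against −0.01 and 0.00 over all genes.

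**Figure D5:**
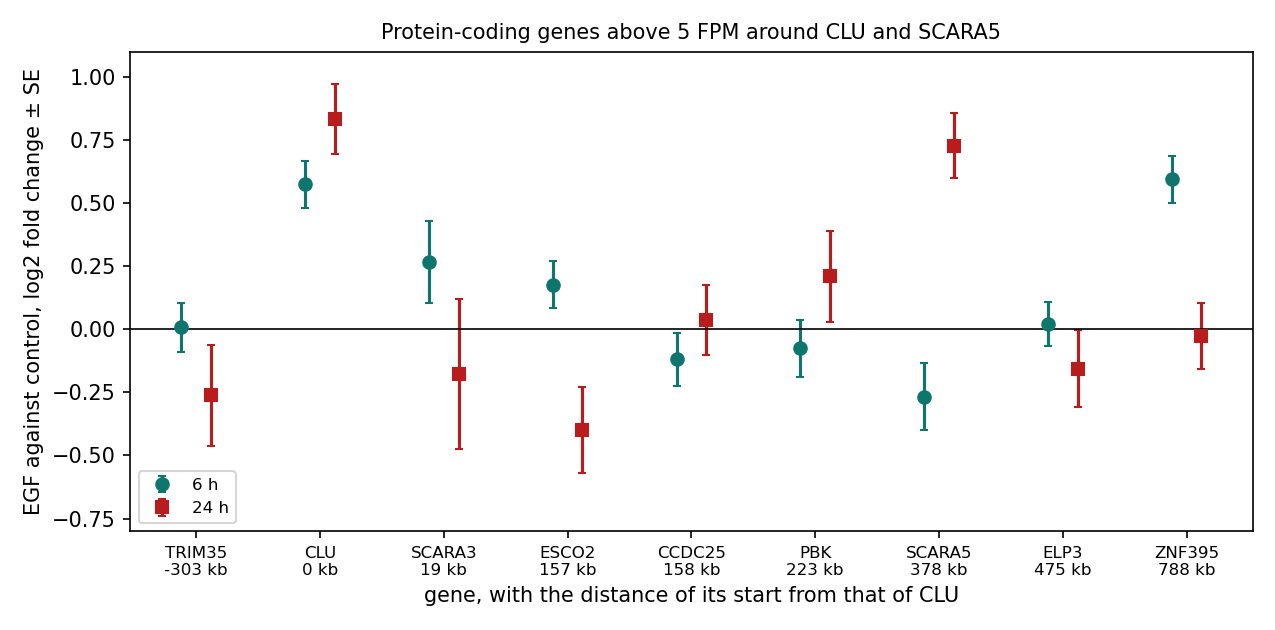
Log2 fold change of EGF against Control with its SE for the 9 protein-coding genes above 5 FPM at both times in the window of 500 kb to either side of CLU and SCARA5, ordered by the distance of their start from that of CLU. CLU is high at both times, SCARA5 only after 24 h and ZNF395 only after 6 h, and the genes between CLU and SCARA5 stay within 0.4 of 0.

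Genes that share a role with SCARA5 were looked up next. Of 17 other scavenger receptors, 9 were tested after 6 h and 10 after 24 h, and edgeR called none in any comparison between conditions at 1 time point. At the share of all genes called with EGF (1.73% after 6 h and 0.0316% after 24 h), lists of this size hold close to none. Their median log2 fold change with EGF was 0.27 after 6 h, against −0.01 over all genes, and 0.08 after 24 h. SCARB1, the HDL receptor, reached an FDR under 0.05 after 6 h, below the fold change limit (0.37, SE 0.098, edgeR FDR 0.024). SCARB2, a lysosomal membrane protein, and SCARF2 changed by 0.06 and −0.04. Of 18 genes of ferritin and iron handling, 13 were tested after 6 h and 15 after 24 h; none was called between conditions, and their median with EGF was 0.01 and 0.05. Their best expressed members were PCBP2, an iron chaperone of ferritin (0.01 after 6 h, 0.13 after 24 h), IREB2, an iron sensor (0.09 and 0.06), and NCOA4, the receptor for ferritin turnover (−0.03 and −0.07).

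Of 17 other extracellular chaperones and apolipoproteins, 8 were tested, and 1 was called in 1 comparison between conditions, namely APOO, a mitochondrial protein despite its name (EGF+AngII against AngII after 6 h, log2 fold change 0.75, SE 0.17, edgeR FDR 0.0097; 1.87% of all genes called). With EGF alone APOO changed by 0.24 after 6 h. The median of this list with EGF was −0.33 after 6 h and 0.08 after 24 h. APOC1, APOOL and APOL2, the best expressed of them, changed by 0.12, −0.07 and −0.30 after 6 h, none past the test. Of 7 receptors for CLU, 5 were tested and none was called between conditions, at the low shares over all genes given above. The endocytic receptor LRP1 came closest, with −0.54 after 6 h (SE 0.11, edgeR FDR 0.0034) and −0.52 after 24 h (SE 0.11, edgeR FDR 0.11), just short of 1.5-fold. LRP8, the ApoE receptor 2, changed by 0.30 after 6 h (edgeR FDR 0.051). The median with EGF was 0.16 after 6 h and −0.02 after 24 h.

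Of 15 factors reported to act on the transcription of CLU, 14 were tested. With EGF, 2 were called after 6 h (1.73% of all genes called) and 1 after 24 h (0.0316% of all genes called). EGR1, an immediate early zinc finger factor, was called with EGF after 6 h (log2 fold change 4.48, SE 0.17, edgeR FDR 2.4e-14) and after 24 h (2.53, SE 0.19, edgeR FDR 1.5e-07). FOS, a subunit of AP-1, was called after 6 h (2.34, SE 0.31) but not after 24 h (0.61, SE 0.45). Its level was low, with a mean of 3.12 FPM over all libraries. The best expressed factors MYC, YBX1 and JUN did not pass the test with EGF after 6 h (−0.09, 0.46 and −0.12) or after 24 h (0.45, 0.43 and 0.40). The median of the list was −0.01 after 6 h and 0.15 after 24 h. The receptor of EGF itself, EGFR, had 45.3 ± 4.84 FPM in Control and 57.6 ± 5.23 FPM with EGF after 6 h, and 27.0 ± 1.83 and 25.8 ± 6.13 FPM after 24 h (SD, n = 4 each).

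Within each of the 2 runs of library numbers (lower and higher), the effects of EGF kept their direction. For CLU the mean log2 difference was 0.56 in the lower and 0.58 in the higher run after 6 h, and 0.99 and 0.66 after 24 h, with 2 libraries a condition in each run. For SCARA5 it was −0.35 and −0.18 after 6 h, and 0.59 and 0.82 after 24 h. EGF+AngII against AngII after 24 h gave 1.01 and 0.93 for CLU and 0.65 and 0.46 for SCARA5, where the lower run holds 1 EGF+AngII library. Of the marker lists, that of HEK293 moved with EGF after 24 h, with a sum of 1908 to 2130 FPM in Control and of 3328 to 4401 FPM with EGF. Of its 9 members tested, NEFM, a neurofilament, was the 1 called at that time (1.16, SE 0.15, edgeR FDR 0.0010), against 0.0316% of all genes. NEFM was also the 1 of 9 called with EGF after 6 h (0.60, edgeR FDR 0.00040), against 1.73% of all genes. There the sums overlapped, with 1273 to 1397 FPM in Control and 1381 to 1552 FPM with EGF. With EGF+AngII after 6 h the sum was 1547 to 1713 FPM. Of the 9 tested, NEFM (0.73, edgeR FDR 3.3e-05) and KRT18 (0.91, edgeR FDR 0.019) were called there, against 1.95% of all genes. The part of these shifts in the results for CLU and SCARA5 was not tested. Of 3 proximal tubule markers tested after 6 h, the endocytic receptor CUBN was called lower with EGF (−1.05, SE 0.29, edgeR FDR 0.028). It was also called lower with EGF+AngII (−1.05, SE 0.29, edgeR FDR 0.030). Its mean was 4.48 FPM, and the shares of all genes called in these comparisons were 1.73% and 1.95%. The part of CUBN in the results was not tested either. Summed levels of the fibroblast, macrophage, endothelial, smooth muscle, proximal tubule and hepatocyte markers overlapped between Control and EGF at both times.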

How the data were processed

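The deposited values were raw counts per gene, made by the authors from paired-end reads of rRNA-depleted total RNA. The submitters' processing notes name Trim Galore, cutadapt 1.8.1, TopHat2 2.0.14, featureCounts 1.4.6 and hg19, whereas the series text names HISAT2. Of 32 libraries in the labels, 31 were mapped to a column of counts; the other, EGF+AngII after 24 h, was not analysed here. Replicate numbers follow the order of the samples and only name a library. In the table of 24 h some column names carry the word filtered, without explanation.

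Genes that passed filterByExpr were scaled by TMM and tested with the quasi-likelihood test of edgeR 4.0.16 (R 4.3.3), in 1 fit of 4 conditions per time point and 1 joint fit of 31 libraries, and checked on simulated data. FPM of CLU and SCARA5 were compared with exact permutation tests (scipy 1.17.1). Positions came from an annotation of GRCh37. Alternatives were DESeq2 1.42.0, its size factors, no low-count filter, protein-coding genes only, a block for the library run, limma 3.58.1 voom and each library left out. The members and gene lists were chosen with earlier results of these data known. Named from each list were the members called in any comparison and the 3 with the highest FPM, and for each member the 5 most alike and 2 most opposed genes per time point. One listed gene that this rule names is not reported here. The scaling by protein-coding counts, the count ratio and the canonical length were added after the values were seen. The depth of 133 to 828 counts of CLU and 101 to 800 of SCARA5 per library limits the precision.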

Additional observations from a re-analysis of the deposited data

Results flagged for a closer look

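In Control after 6 h, 1 library stood apart for each gene: for CLU replicate 1 at 49.6 FPM, with a gap to the next library of 0.868 of the group's range, and for SCARA5 replicate 4 at 36.1 FPM, with a gap of 0.848. CLU, SCARA5 and their count ratio were each examined in every condition with 4 libraries. Of these 21 sets of 4 values, 2 were marked in this way, and chance alone would mark about 1.05. The ratio derives from the counts of both genes, so the sets are not independent.

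The effect of EGF on SCARA5 differed between the time points by 0.990 on the log2 scale (SE 0.19), from −0.27 after 6 h to 0.73 after 24 h. The gene was chosen for its values after 24 h, so this difference describes it and is not an independent finding.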

How the results depend on the processing

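No paired analysis was possible because libraries carry no replicate number in the labels; a block for the run of library numbers changed no call of CLU or SCARA5. The 30 values of CLU and SCARA5 were refitted 738 times, and 716 kept their value in the sense used here: the direction and the side of the call where a test was made, and a shift under 1 SD of the libraries where values are a description (EGF and EGF+AngII against Control and EGF+AngII against EGF after 24 h, and the EGF and EGF+AngII differences between times). Calls lost among the latter are therefore not part of the remainder and stand in the report. The rise of CLU with EGF after 6 h passed the fold change limit with no low-count filter (0.596) and with voom (0.605), and lay between 0.536 and 0.616 with single libraries left out. SCARA5 in EGF+AngII against AngII after 24 h was called with voom (0.592). Directions turned only near 0: for CLU, the AngII effect after 24 h minus that after 6 h with DESeq2 (−0.0015), no filter (−0.0013), protein-coding genes (−0.0098) and libraries left out (−0.081 to 0.121); with libraries left out also CLU in EGF+AngII against EGF after 24 h (−4.16e-05 to 0.147), and for SCARA5 AngII after 6 h (−0.153 to 0.0574), EGF+AngII against EGF after 6 h (−0.0239 to 0.158), AngII after 24 h (−0.0027 to 0.103) and the AngII difference between times (−0.016 to 0.212). With voom both calls with EGF after 24 h were lost (FDR 0.080 for CLU, 0.0999 for SCARA5). The cause was not tested. Over all genes, calls with EGF after 24 h went from 7 to 55 with DESeq2, 54 with no filter, 20 among protein-coding genes, 35 with the block and 2 with voom; with EGF+AngII from 6 to 31, 121, 15, 32 and 24, and against AngII from 9 to 34, 51, 22, 31 and 37. Without the fold change and FPM limits, 1112 in place of 322 genes passed with EGF after 6 h.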
